A study of Mus musculus with 57 samples.

Results

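Dbp, Tef, Hlf, Nfil3, Bhlhe40 and Bhlhe41, 6 transcription factors that carry time of day from the circadian clock to other genes, were followed in the visual cortex of mice over a day with light and a day without it. They were looked up by symbol in the deposited expression table and are 6 of its 24394 named genes. All 6 had a row, and 5 had a mean value of at least 10 and were tested, Bhlhe41 being the exception. Per the labels and design text, the mice had the genotype WT, and strain, age and sex are not given in those sources. All were kept on a cycle of 12 h of light and 12 h of darkness. On the day of collection the lights came on as usual for the light arm and stayed off for the dark arm. Time is Zeitgeber time (ZT), in hours after the usual lights-on. The dark arm was sampled at 8 times (ZT0 and ZT1, then ZT3, ZT7.5 and ZT11.5, then ZT13, ZT15 and ZT18), and the light arm at the same times without ZT0. There were 30 dark and 27 light libraries of total RNA, made by MARS-Seq, which counts short tags read near the 3′ end of each transcript. Groups held 4 libraries, except Dark ZT1, Dark ZT13 and Light ZT18 with 3. The labels call the samples biological replicates, but do not say whether different animals gave them, and p-values speak only of the spread among libraries.

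Dbp, Tef and Hlf form the PAR bZIP family, proline- and acid-rich leucine zipper activators that bind the D-box element. Nfil3, also called E4BP4, is a leucine zipper repressor that binds the same element, so that in the liver and the suprachiasmatic nucleus D-box genes are read by activators and a repressor in opposite phases. Bhlhe40 and Bhlhe41, also called Dec1 and Dec2, are helix-loop-helix repressors that bind the E-box, the element through which the CLOCK and BMAL1 activators drive Per, Dbp and other clock genes. Bhlhe40 and Nfil3 are also known as genes that respond to stimuli such as growth factors and cyclic AMP.

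The start regions of the PAR bZIP members are printed here because their clock elements are what a reader would compare with the time courses below. They come from RefSeq (build GRCm38.p6), span 250 bases before to 50 after an annotated start, and run 5′ to 3′ on the gene's strand. The table gave a window for 5 of the 6 members, and 2 windows for Tef. Capitals mark matches, on either strand, to the E-box CACGTG, the variant E-box CACGTT, the D-box TTANGTAA or the cyclic AMP element (CRE) TGACGTCA. The Dbp window is chr7:45704997-45705296 (plus strand), the Tef windows are chr15:81802423-81802722 and chr15:81811164-81811463 (plus strand), and the Hlf window is chr11:90390868-90391167 (minus strand).
Dbp: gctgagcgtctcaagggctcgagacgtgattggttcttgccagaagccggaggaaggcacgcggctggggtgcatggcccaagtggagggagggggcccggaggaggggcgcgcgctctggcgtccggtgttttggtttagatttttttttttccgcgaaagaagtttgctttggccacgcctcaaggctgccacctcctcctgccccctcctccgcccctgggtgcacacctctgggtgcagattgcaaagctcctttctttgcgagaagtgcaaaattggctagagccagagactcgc
Tef, first start: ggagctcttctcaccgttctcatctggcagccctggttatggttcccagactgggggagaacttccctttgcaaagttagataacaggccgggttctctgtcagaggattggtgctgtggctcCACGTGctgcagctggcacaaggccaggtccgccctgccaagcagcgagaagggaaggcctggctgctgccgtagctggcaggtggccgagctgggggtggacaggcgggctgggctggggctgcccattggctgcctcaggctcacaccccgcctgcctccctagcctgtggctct
Tef, second start: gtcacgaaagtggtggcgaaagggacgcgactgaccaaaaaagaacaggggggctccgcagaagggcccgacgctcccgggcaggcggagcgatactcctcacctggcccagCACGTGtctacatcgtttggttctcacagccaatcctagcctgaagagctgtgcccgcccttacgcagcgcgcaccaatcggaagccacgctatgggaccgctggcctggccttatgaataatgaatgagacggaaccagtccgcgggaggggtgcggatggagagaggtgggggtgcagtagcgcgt
Hlf: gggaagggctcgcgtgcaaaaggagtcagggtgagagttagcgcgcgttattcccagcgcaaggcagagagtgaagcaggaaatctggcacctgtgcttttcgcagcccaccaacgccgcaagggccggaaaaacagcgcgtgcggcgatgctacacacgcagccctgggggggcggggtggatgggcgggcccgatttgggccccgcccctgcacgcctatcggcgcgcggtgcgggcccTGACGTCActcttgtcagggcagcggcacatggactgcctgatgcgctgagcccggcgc
Both Tef windows held CACGTG, at -127 to -122 of the first start and -138 to -133 of the second. The Hlf window held TGACGTCA at -9 to -2. The Bhlhe41 window (chr6:145865371-145865670, minus strand) held CACGTG at -153 to -148. None of the 4 motifs was in the Dbp or the Nfil3 window, which says only that these letters are not in those bases. Of all 32851 windows of this length, 7.15% held the E-box, 4.685% the variant E-box, 2.323% the D-box and 1.79% the CRE. A match is a description of sequence and not a site of binding.

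In the GENCODE annotation of the mm10 genome, Dbp lies at chr7:45705088-45710203, Tef at chr15:81802421-81826863, Hlf at chr11:90336536-90390895, Nfil3 at chr13:52967209-52981073, Bhlhe40 at chr6:108660629-108666925 and Bhlhe41 at chr6:145858243-145865558. Dbp overlaps Sphk2 on the opposite strand, and Tef, Bhlhe40 and Bhlhe41 each overlap an unnamed gene model on the opposite strand. No source used here states whether counting used the strand, so reads of such pairs could be mixed.

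Depth ran from 1.64 to 4.31 M reads per library (M, mega), and 7 libraries had under 2 M. Values are deposited normalised counts, given per library in replicate order or as mean ± SD. Differences are on the log2(value + 1) scale, from limma fitted over the 10526 genes with a mean of at least 10, with Benjamini-Hochberg adjusted p-values over all of them, and a gene is called at an adjusted p below 0.05. Since 3′ tags do not give levels per length, no level is compared between genes. Where the libraries of groups are said not to overlap, this is a description. So few libraries can separate by chance, and the share of all genes that separate was not counted. Replicates 3 and 4 differed from replicates 1 and 2 in Xist, which was above 20 in 27 of 27 and in 2 of 30 libraries, respectively. Markers of cortical excitatory neurons were present in every library, with none at 0. In these bulk samples fewer cells of a type and less RNA per cell cannot be told apart.

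Dbp, a D-box activator driven by the clock, had its lowest means in the first hours of the day in both arms, and its highest at ZT11.5 in light and from ZT11.5 to ZT15 in darkness. In the dark arm it stood at 684, 669 and 727 at ZT1, at 1042, 972, 878 and 931 at ZT11.5, and at 763, 739, 611 and 679 at ZT18. Every ZT11.5 library lay above every library of ZT1 and ZT18. The lowest group mean of this arm was 643 ± 79.9 (SD, n = 4) at ZT0 and the highest 998 ± 148 (SD, n = 3) at ZT13, a ratio of 1.55. The means at ZT13, ZT15 and ZT11.5 were 998, 998 and 956, with overlapping ranges, so that no order among them is given.

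In the light arm Dbp stood at 649, 630, 472 and 559 at ZT1, at 538, 641, 595 and 389 at ZT3, and at 877, 986, 897 and 956 at ZT11.5. The ZT11.5 libraries again lay above all libraries of the early times. Its mean of 929 ± 50.3 (SD, n = 4) was 1.72 times the 541 ± 109 (SD, n = 4) of ZT3. At ZT13 the values were 832, 872, 667 and 841, all below those of ZT11.5. The ZT7.5 libraries were the most scattered, at 689, 563, 930 and 995.

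Dbp changed over the 8 dark times (limma F test, adjusted p = 0.00022) and over the 7 light times (adjusted p = 7.06e-05). From ZT1 to ZT11.5 it rose by 0.69 ± 0.13 (SE) on the log2 scale in light, which is 1.62-fold (limma, adjusted p = 0.000696). In darkness the difference was 0.46 ± 0.14 (SE), or 1.38-fold, with an adjusted p of 0.0503 by limma, just outside the threshold. edgeR, DESeq2 and 5 other settings put the dark difference inside it, edgeR at an adjusted p of 0.0404. It stayed outside in all 7 fits that left out a single library (0.0645 to 0.217), and at 0.307 with a term for oligodendrocyte markers. The difference between the arms in this daytime change was 0.23, with a 95% interval from -0.14 to 0.61 (limma, adjusted p = 1). From ZT11.5 to ZT18 in darkness Dbp fell by 0.46 on the log2 scale (limma, adjusted p = 0.0231). That call was lost without the libraries under 2 M reads, 2 of which are at Dark ZT18 (adjusted p = 0.0852), without Dark ZT11.5 replicate 1 (0.0626), without Dark ZT18 replicate 3 (0.0675) and without Dark ZT18 replicate 4 (0.0555). In light the same step was -0.35 (limma, adjusted p = 0.487).

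Tef, the second PAR bZIP activator, reached its highest value later than Dbp and varied most in darkness. In the dark arm it stood at 1260, 1107, 1195 and 1274 at ZT7.5, at 1382, 1253, 1532 and 1356 at ZT11.5, and at 1773, 1834, 1721 and 2213 at ZT18. All 4 libraries of ZT18 lay above all of ZT7.5 and ZT11.5. The group means ran from 1209 ± 76.3 (SD, n = 4) at ZT7.5 to 1885 ± 223 (SD, n = 4) at ZT18, a ratio of 1.56. In the light arm they ran from 1244 ± 68.7 (SD, n = 4) at ZT1 to 1552 ± 206 (SD, n = 4) at ZT13, a ratio of 1.25, and the ranges of these extremes overlapped. Light ZT13 held 1485, 1307, 1622 and 1794, and Light ZT18 held 1245, 1427 and 1688.

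Tef changed over the dark times (limma F test, adjusted p = 0.000329) and rose by 0.45 ± 0.10 (SE) on the log2 scale from ZT11.5 to ZT18 in darkness (adjusted p = 0.00667), 1.36-fold. Without the libraries under 2 M reads that step was 0.37, with an adjusted p of 0.145. Over the light times the adjusted p was 0.103 by limma, 0.0359 by DESeq2 and 0.0361 by limma with terms for replicates 3 and 4 against 1 and 2, and without Light ZT13 replicate 2 it was 0.0454 by limma. The step from ZT11.5 to ZT18 in light was 0.21 (limma, adjusted p = 0.661). From ZT1 to ZT11.5 Tef differed by 0.04 in darkness and 0.01 in light (limma, adjusted p = 0.905 and 0.99).

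Hlf, the third PAR bZIP activator, passed no test over time or between the arms. Its dark means ran from 247 ± 36.0 (SD, n = 3) at ZT1 to 326 ± 36.6 (SD, n = 4) at ZT0, and its light means from 238 ± 31.2 (SD, n = 4) at ZT7.5 to 300 ± 50.8 (SD, n = 4) at ZT15. The ratios were 1.32 and 1.26. The adjusted p over times was 0.329 in darkness and 0.405 in light by limma. Dark ZT0 held 282, 311, 346 and 364 and Dark ZT1 held 209, 250 and 281, so that these neighbouring hours did not overlap, with a difference of -0.40 (limma, adjusted p = 0.336).

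Nfil3, the D-box repressor, was highest 1 h after lights-on in the light arm. Light ZT1 held 49.6, 43.3, 57.1 and 49.6, Dark ZT1 held 29.6, 31.5 and 33.2, and Light ZT11.5 held 26.9, 22.3, 27.3 and 18.6. Every Light ZT1 library lay above all of those other groups, and also above the 36.0, 37.9, 27.0 and 36.2 of Dark ZT0. The Light ZT1 libraries overlapped those of Dark ZT18 and Light ZT13, which reached 54.2 and 44.2. The light means ran from 23.5 ± 6.82 (SD, n = 3) at ZT18 to 49.9 ± 5.64 (SD, n = 4) at ZT1, a ratio of 2.12. In darkness they ran from 22.7 ± 1.63 (SD, n = 4) at ZT15 to 34.3 ± 4.91 (SD, n = 4) at ZT0, a ratio of 1.51. These values rest on 7 to 63 reads per library, the fewest of the 5 tested members.

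Nfil3 changed over the light times (limma F test, adjusted p = 0.0392), and over the dark times the adjusted p was 0.57. It fell in light from ZT1 to ZT11.5, by 1.05 on the log2 scale (SE 0.27, limma, adjusted p = 0.0305). In darkness that step was -0.44 (limma, adjusted p = 0.498), and the difference between the steps was -0.61, with a 95% interval from -1.42 to 0.20 (adjusted p = 1). Leaving out single libraries moved the adjusted p of the light fall between 0.0458 and 0.0992. The call was lost without Light ZT1 replicate 1, 3 or 4 (0.0639, 0.0992 and 0.0684) and without Light ZT11.5 replicate 2 or 4 (0.0843 and 0.0964). The call over the light times was lost without 10 of 27 libraries, with adjusted p-values up to 0.127, reached without Light ZT1 replicate 3. These were all 4 of Light ZT1, replicates 2 and 4 of Light ZT11.5, replicate 3 of Light ZT13, replicates 3 and 4 of Light ZT15 and replicate 1 of Light ZT18.

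Bhlhe40, the E-box repressor Dec1, also had its highest light mean at ZT1, and fell short of the threshold. Light ZT1 held 205, 191, 147 and 174, Dark ZT0 held 109, 137, 124 and 119, and Light ZT7.5 held 96.4, 117, 108 and 118. All Light ZT1 libraries lay above all libraries of those other groups. They overlapped those of Light ZT3, Light ZT11.5, Light ZT13 and Light ZT15, which reached 180, 198, 185 and 161. In darkness they overlapped those of ZT1, ZT3, ZT7.5, ZT13 and ZT15, which reached 160, 155, 159, 178 and 175. The light means ran from 110 ± 10.1 (SD, n = 4) at ZT7.5 to 179 ± 24.9 (SD, n = 4) at ZT1, a ratio of 1.63, and the dark means from 113 ± 8.02 (SD, n = 4) at ZT18 to 156 ± 19.2 (SD, n = 3) at ZT13, a ratio of 1.38. The adjusted p over the light times was 0.0561 by limma, 0.0418 by edgeR and 0.0133 by DESeq2. It moved between 0.0239 and 0.141 as single libraries were left out, and was under 0.05 in 8 of 27 such fits. Those left out Light ZT1 replicate 3, Light ZT3 replicate 2 or 3, Light ZT11.5 replicate 3 or 4, Light ZT13 replicate 4, or Light ZT15 replicate 1 or 3. Over the dark times the adjusted p was 0.405.

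Bhlhe41, the relative Dec2, was at the edge of detection. It had 44 reads over all 57 libraries and 0 reads in 28 of them. That is 0.279 reads per M, with an exact 95% Poisson interval from 0.203 to 0.374 that covers counting error only. The dark arm had 26 reads and the light arm 18, or 0.308 (0.201 to 0.452) and 0.245 (0.145 to 0.387) reads per M, with overlapping intervals. Dark ZT18 had 0 reads, which allows up to 0.343 reads per M at 3 reads, with an exact interval reaching 0.421. Small or moderate changes of Bhlhe41 were not detectable at this depth. With no filter on low values it was called in no comparison. The lowest adjusted p was then 0.128 by limma, for a difference of -1.23 from ZT11.5 to ZT18 in darkness.

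**Figure D1:**
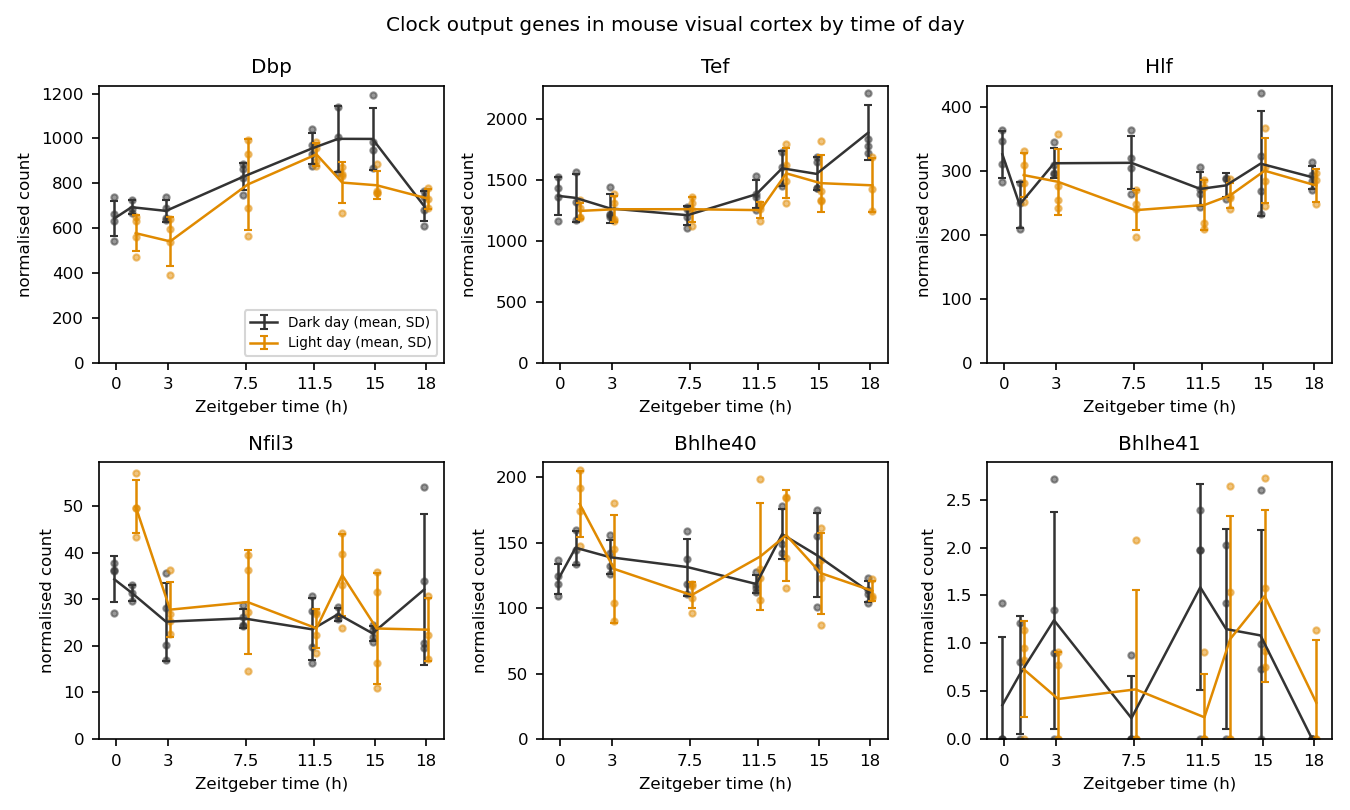
Normalised counts (y axis, from 0) of the 6 genes against Zeitgeber time (x axis, h) in the dark (black) and light (orange) arms, shifted slightly apart. Points are libraries, lines join group means and bars are SD; Dbp climbs to ZT11.5 in both arms, Tef is highest at Dark ZT18, and Nfil3 is highest at Light ZT1.

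Among all members, 2 of the 5 tested, Dbp and Tef, were called over the 8 dark times, where 6.52% of all genes tested were. Over the 7 light times 2 of 5, Dbp and Nfil3, were called, where 3.81% of genes were. Between ZT1 and ZT11.5 no member was called in darkness (2.75% of genes) and 2 were in light (1.7% of genes), Dbp upward and Nfil3 downward. From ZT11.5 to ZT18 there were 2 in darkness (5.88% of genes), Dbp downward and Tef upward, and none in light (0.076% of genes). No member was called for an arm difference in the step from ZT1 to ZT11.5, nor was any gene (0%). That test found 362 of 10526 genes at an unadjusted p below 0.05, and edgeR and DESeq2 called 0 genes. Chance alone puts a share of about 0.05 of genes there, so such counts, here and below, are not counts of differences.

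A cosine of 24 h was fitted in each arm to place the peaks. Sampling covered 18 h, so peak times rest on the assumed period, and nothing was sampled between ZT18 and ZT24. Dbp had an amplitude of 0.31 ± 0.05 (SE) on the log2 scale in darkness and 0.34 ± 0.05 (SE) in light, or peak-to-trough folds of 1.53 and 1.60. Its fitted peak was at ZT 11.7 ± 0.68 h (SE) in darkness and ZT 12.1 ± 0.68 h (SE) in light, and the cosine held 88.1% and 89.1% of the variance between times. Tef in darkness had an amplitude of 0.29 ± 0.04 (SE) and a peak at ZT 17.9 ± 0.48 h (SE), at the last time sampled. In light Tef had an amplitude of 0.14 ± 0.04 (SE) and a peak at ZT 16.7 ± 1.27 h (SE).

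The dark cosine was called for Dbp and Tef (limma, adjusted p = 1.48e-05 and 1.9e-05), 2 of 5 members against 5.89% of all genes tested. The light cosine was called for Dbp (adjusted p = 1.64e-05), 1 of 5 members against 3.14% of genes. Tef in light had an adjusted p of 0.0737 by limma, 0.0401 by DESeq2, and 0.0431 by limma without Light ZT18 replicate 1. Hlf, Nfil3 and Bhlhe40 had adjusted p-values of 0.89, 0.417 and 0.863 in darkness and 0.243, 0.239 and 0.76 in light. For the difference between the arms' cosines no member was called, nor was any gene (0%), with 681 genes at an unadjusted p below 0.05 and 0 by edgeR or DESeq2. Tef had a limma adjusted p of 0.777, and Dbp had an adjusted p of 0.965.

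Core clock genes gave a scale for these phases. In darkness Arntl, which encodes the activator BMAL1, had its fitted peak at ZT 1.15 ± 0.98 h (SE), and the repressor gene Ciart at ZT 11.1 ± 0.98 h (SE). The period gene Per3 peaked at ZT 14.6 ± 0.84 h (SE) in darkness and ZT 15.0 ± 1.04 h (SE) in light. The cryptochrome gene Cry1 peaked at ZT 17.3 ± 0.82 h (SE) in darkness. Npas2, whose dark cosine was also called (limma, adjusted p = 0.0462), peaked at ZT 15.1 ± 1.36 h (SE), near Per3 and far from Arntl. In that arm Dbp lay between Ciart and Per3 in fitted time, with overlapping SE ranges of Dbp and Ciart. Tef lay there beside Cry1, Per2 (ZT 17.3 ± 1.01 h, SE) and Cry2 (ZT 17.3 ± 0.84 h, SE). These orders were not tested. The light cosines of Ciart and Cry1 were not called (limma, adjusted p = 0.83 and 0.665), so no such order is given for light.

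**Figure D2:**
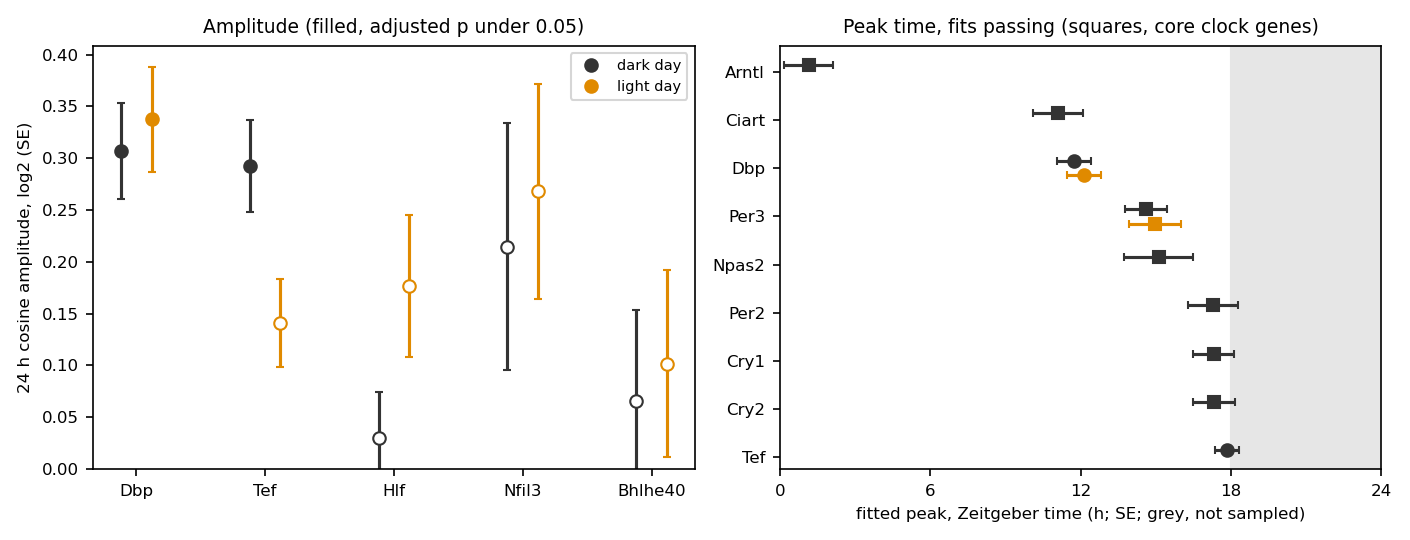
Left, amplitude of the 24 h cosine (y axis, log2, SE bars) for the 5 tested members in the dark (black) and light (orange) arms, filled where the adjusted p was under 0.05. Right, fitted peak (x axis, Zeitgeber time in h, SE bars) of members (circles) and core clock genes (squares) whose fit passed; Dbp sits near ZT12 in both arms and Tef near ZT18, where the unsampled grey hours begin.

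Light and dark libraries of the same time were then compared, which asks what a day's light does to each gene at that hour. At ZT1 the Dbp values of the light arm, 472 to 649, lay below the dark values, 669 to 727. The difference was -0.27, with a 95% interval from -0.55 to 0.00023 (limma, adjusted p = 1). The mean of Dbp was lower in light at 6 of 7 times, ZT18 being the exception, and the unadjusted p was below 0.05 at ZT3, ZT13 and ZT15. The differences there were -0.35, -0.31 and -0.33 (limma, adjusted p = 0.489, 0.516 and 0.996). As single libraries were left out, the ZT3 difference ran from -0.435 to -0.196, the latter without Light ZT3 replicate 4. At ZT7.5 and ZT11.5 the differences were -0.10 and -0.04. Those were -0.33 and -0.11 within replicates 1 and 2, and above 0 within 3 and 4, at 0.14 and 0.03. Within replicates 1 and 2 the difference was -0.08 at ZT1 and -0.17 at ZT3. Within 3 and 4 it was -0.50 at ZT1, with 1 dark library, and -0.52 at ZT3. Without the libraries under 2 M reads the difference at ZT13, where 2 of 3 dark libraries were that shallow, was -0.08. Xist was above 20 in 4 of 4 light and 1 of 3 dark libraries at ZT13, and its part in comparisons with ZT13, within or between arms, was not tested beyond a term for it, which changed no call of a member.

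At ZT18 the Tef values of the light arm, 1245 to 1688, lay below the dark values, 1721 to 2213. The difference was -0.38, with a 95% interval from -0.60 to -0.16 (limma, adjusted p = 0.298). It was -0.44 within replicates 1 and 2, and -0.21 within 3 and 4, with 1 light library. At ZT1 all 4 light libraries of Nfil3 lay above all 3 dark ones. The difference was 0.65, with a 95% interval from 0.05 to 1.24 (limma, adjusted p = 1). Within replicates 1 and 2 that difference was 0.59, and within 3 and 4, with 1 dark library, 0.67. Hlf at ZT7.5 differed by -0.39 (limma, adjusted p = 0.726), with -0.38 and -0.39 within the same replicate pairs. The ranges overlapped there, as 1 light library at 270 lay above the lowest dark library at 263. For Bhlhe40 the largest difference at a matched time was 0.29, at ZT1 (limma, adjusted p = 1).

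At no time was any of the 5 members called between the arms, against 0.257% of genes at ZT1, 0.124% at ZT3, 0% at ZT7.5, 0.152% at ZT11.5, 0.038% at ZT13, 0% at ZT15 and 0% at ZT18. edgeR and DESeq2 called no member either. Where limma called 0 genes, 613 had an unadjusted p below 0.05 at ZT7.5, 464 at ZT15 and 964 at ZT18, with 0 by edgeR and 0, 0 and 1 by DESeq2. A change over time in the gap between the arms was called for no member and for 0.181% of genes. The adjusted p ran from 0.811 for Hlf to 0.899 for Nfil3 by limma. The 95% intervals at matched times reached at most 0.66 from 0 for Dbp, Tef, Hlf and Bhlhe40 in either direction, and 1.24 for Nfil3. These are the widest reaches, and some intervals were narrower, such as -0.21 to 0.20 for Tef at ZT3.

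**Figure D3:**
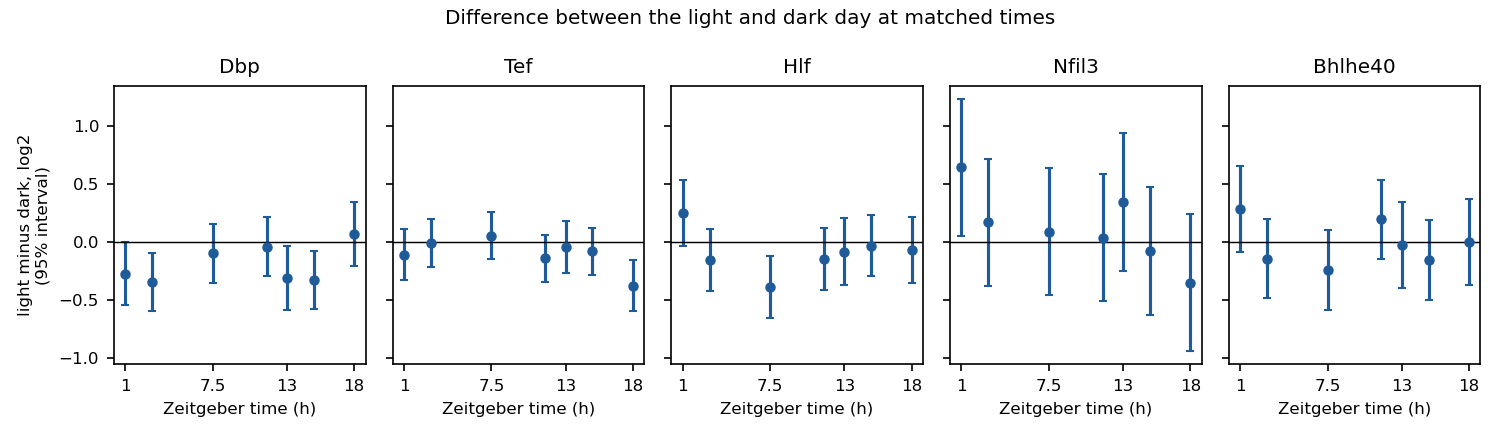
Light minus dark difference (y axis, log2, with 95% limma intervals) at the 7 matched Zeitgeber times (x axis, h) for the 5 tested members. Dbp lies below 0 at 6 of 7 times, Tef drops at ZT18 to -0.38, and Nfil3 stands highest at ZT1 with the widest intervals.

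The hour after lights-on and the hours around lights-off were compared within each arm. The ZT0 libraries are the shared baseline of both arms, so the steps from ZT0 to ZT1 in light and in darkness are not independent. Bhlhe40 differed by 0.55 ± 0.17 (SE) in light (limma, adjusted p = 0.334) and by 0.26 in darkness (adjusted p = 0.744). With terms for replicates 3 and 4 against 1 and 2 the light step was 0.74 and was called (limma, adjusted p = 0.0239), the only one of 13 alternatives that called it. With the oligodendrocyte term it was 0.36 (adjusted p = 0.941). Nfil3 differed by 0.53 in light (adjusted p = 0.893) and by -0.11 in darkness, where its ranges overlapped. No member was called in the main test in either arm, against 0.057% of genes in darkness and 0.304% in light. From ZT11.5 to ZT13 no member was called, against 0.0095% of genes in darkness and 0.257% in light. The smallest p there was for Tef in light, which differed by 0.30 (limma, adjusted p = 0.193).

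Across the group means the members did not follow a single course. Dbp and Tef had a Pearson r of 0.28 over the 15 groups, and Dbp and Hlf of -0.20. Dbp and its counterpart Nfil3 had r = -0.71 over the 8 dark groups and -0.51 over the 7 light groups. Nfil3 and Bhlhe40 had r = 0.83 over the light groups, where both were highest at ZT1, and -0.11 over the dark groups. These are descriptions of points that share libraries and scaling, with no test.

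**Figure D4:**
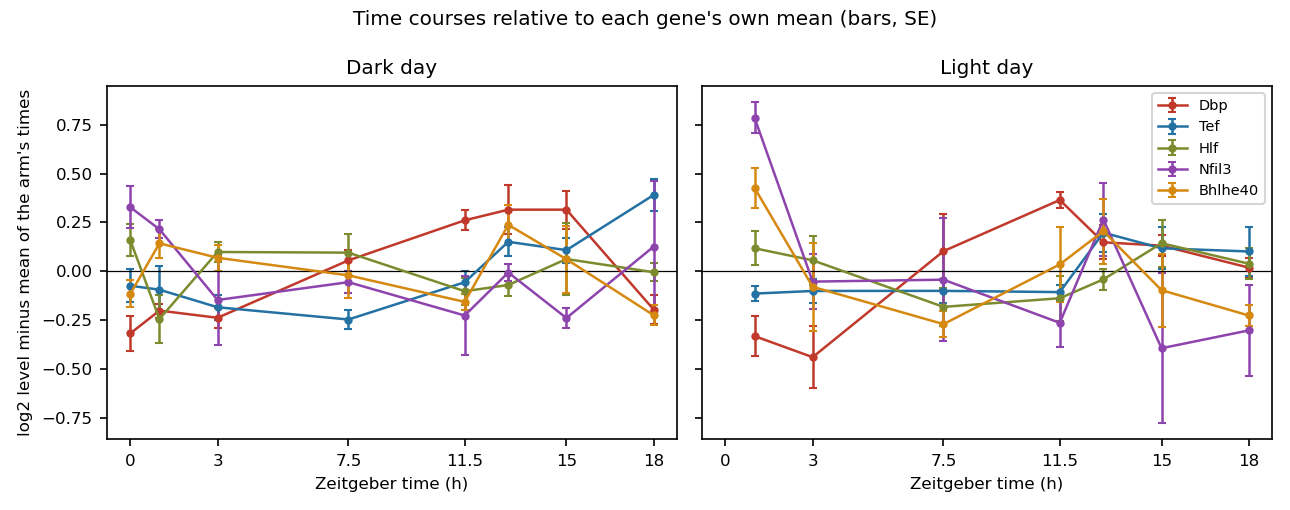
Group means on the log2 scale minus the mean of the arm's times (y axis, SE bars) against Zeitgeber time (x axis, h) for the 5 tested members in the dark and light arms. In light Nfil3 and Bhlhe40 are both highest at ZT1 when Dbp is low; in darkness Dbp is high from ZT11.5 to ZT15 and Tef at ZT18.

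The genes with group means most like each member were sought among the 888 genes called over dark or light times, over 15 groups. For Dbp these were Mthfd1l (r = 0.876), Tspan4 (0.85) and Cirbp (0.848), which encodes a cold-inducible RNA-binding protein. For Tef they were Tmem145 (0.872), Nrbp2 (0.851) and Zcchc24 (0.848). For Nfil3 they were Ier2 (0.771), Phlda1 (0.73) and Crem (0.73), of which Ier2 is an immediate-early gene and Crem a cyclic AMP response factor. For Bhlhe40 they were Bhlhb9 (0.806), Tomm20 (0.733) and the immediate-early gene Junb (0.677). For Hlf, which passed no test over time, they included Mrpl34 (0.714) and Klf7 (0.646). Each gene was picked as among the highest of 888 values of r, so a high r is built into the choice. None of these likenesses was tested.

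Other genes of the same pathways were counted from lists. Of 18 core clock genes 14 were tested, and 5 changed over the dark times (Arntl, Ciart, Npas2, Per2 and Per3) and 3 over the light times (Per1, Per2 and Per3), beside 6.52% and 3.81% of all genes tested. In darkness between ZT1 and ZT11.5, Ciart rose by 1.07 and Per3 by 0.66 on the log2 scale (limma, adjusted p = 0.0316 and 0.0216), beside the 0.46 of Dbp. The median over the 14 was 0.05, against 0.0012 over all genes tested. In light the one core clock gene called was Per1, which fell by 0.76 (limma, adjusted p = 0.0112), the direction of Nfil3. At ZT1 Per1 was higher in light than in darkness by 1.10 (limma, adjusted p = 0.000314).

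Of 8 described targets of the PAR bZIP factors, known mainly from liver and kidney of mice, 3 were tested. Por, the electron donor of cytochrome P450 enzymes, rose by 0.31 from ZT1 to ZT11.5 in light (limma, adjusted p = 0.0485), and no target was called in the other comparisons. Of 6 genes listed as C/EBP relatives, most of them leucine zipper factors near the PAR bZIP family, 4 were tested and none was called in any comparison. Of 9 Hes and Hey relatives, the helix-loop-helix repressors nearest to Bhlhe40, 5 were tested and Hes5 alone was called. Hes5 rose by 0.55 from ZT1 to ZT11.5 in light (limma, adjusted p = 0.000929) and differed by -0.14 in darkness. The difference between the arms in that step was called for no gene. Hes5 was also called over the dark and the light times and for the cosine of each arm. From ZT0 to ZT1 in light it was called lower.

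Of 20 immediate-early genes, which neuronal activity switches on within minutes, 18 were tested. At ZT1, 13 were called higher in light than in darkness and none lower, against 27 and 0 of all 10526 genes tested. The median over the 18 was 1.63 on the log2 scale against 0.0018 over all genes, beside the 0.65 of Nfil3 and the 0.29 of Bhlhe40. From ZT1 to ZT11.5 in light, 13 of 18 were called lower, against 91 of all 10526 genes tested. The median over the 18 was -1.14, beside the -1.05 of Nfil3. In darkness 6 of 18 were called lower for that step, against 131 of all genes. The dark median was -0.47, beside the -0.44 of Nfil3. The difference between the arms in that step was called for none of the 18. The list's members have other levels than Nfil3, and log2(value + 1) understates the change of low genes.

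Markers of oligodendrocytes, the myelin-forming glia, moved over some of the same hours as Dbp. All 6 markers of the list changed over the dark times and 3 of 6 over the light times (limma, adjusted p below 0.05). The shares of all genes tested were 6.52% and 3.81%. None of the 6 was at 0 in any library. From ZT1 to ZT11.5, 4 of 6 were called higher in darkness and 3 of 6 in light, beside 2.75% and 1.7% of all genes called. Mbp, which makes up most of the summed level, was not among those called for that step in either arm. The summed level of the 6 ran from 13817 to 16043 at Dark ZT1. It ran from 19046 to 21886 at Dark ZT11.5 and from 15728 to 23368 at Dark ZT18. At Dark ZT0, where Dbp had its lowest dark mean, it ran from 17623 to 21977, and at Dark ZT7.5 from 19614 to 21998. Both ranges overlapped that of Dark ZT11.5, so the sum did not follow Dbp at every time. In light it ran from 15459 to 18189 at ZT1 and from 21869 to 24438 at ZT11.5. With a term for the mean log2 marker level, a setting chosen after seeing the data, Dbp was still called over the dark and the light times (limma, adjusted p = 0.00582 and 0.00402), and Tef over the dark times (0.0034). With that term Nfil3 was not called over the light times (0.168) or from ZT1 to ZT11.5 in light, where its difference was -0.92 (0.288). Beyond these fits, the part of the oligodendrocyte markers in the results was not tested. Of 4 endothelial markers 3 were tested, and Cldn5, a tight junction gene of brain vessels, changed over the dark times. The summed endothelial level ran from 217 to 255 at Dark ZT11.5 and from 326 to 445 at Dark ZT18, the step over which Tef rose, with Slco1a4 at 0 in 5 libraries. Choroid plexus markers, of which 4 were tested and none was called over times, summed to between 61.4 and 20901 across libraries, with Kcnj13 at 0 in 13, Clic6 in 2 and Folr1 in 1. The part of these other markers was not tested.

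Within the light arm replicates 3 and 4 also differed from 1 and 2 in some members. The difference was -0.20 for Hlf and -0.26 for Bhlhe40 (limma, adjusted p = 0.0386 and 0.0465), against 10.1% of all genes called for it. Tef was higher by 0.14 there (adjusted p = 0.0646), and in the dark arm no member was called, against 0.722% of genes. The labels do not say what the replicate numbers stand for.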

How the data were processed

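Visual cortex RNA of 57 libraries was measured by MARS-Seq. Per the submitters' processing notes, the tools were cutadapt, STAR 2.5.2b with the mm10 build, and DESeq2. No source used here states the counter, its annotation, its strand setting or how molecular identifiers were treated. The deposited signal values are gene counts that the authors divided by 1 size factor per library. Dividing by the value of 1 read recovered whole reads: 100% of values came within 0.01 of one, the farthest by 0.0067. Of 24421 rows, 27 with date names were left out. Replicate pairs differed by more than counting noise (chi-square per degree of freedom 2.054 to 6.392 over 81 pairs).

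The main test was limma 3.58.1 (R 4.3.3) with trend on log2(value + 1), fitted to all 57 libraries in 15 groups without covariates, over 10526 genes with a mean of at least 10. A gene near a mean of 10 rests on few reads, and its fold is the less precise. Tests were two-sided, with Benjamini-Hochberg adjustment over all genes tested and a threshold of 0.05. Moderated F tests covered change over the times of an arm and the variation with time of the difference between arms. Contrasts and 24 h cosine fits covered the rest, 22 comparisons in all. Depth was 1.64 to 4.31 M reads. The scripts were tested on simulated data.

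The genes named were the 6 members, the 3 genes most like each by Pearson r of group means, and genes of the core clock, PAR bZIP target, C/EBP, Hes and Hey, and immediate-early lists where a member's result is set beside them. A gene that this rule takes is not reported here. The core clock peak times were added after their values were seen. The members and lists were chosen with earlier results of these data known. Alternatives were a pseudocount of 5, no filter, a minimum mean of 50, TMM rescaling, only the groups compared, a replicate block, terms for replicates 3 and 4 against 1 and 2, a term for Xist, libraries under 2 M reads left out, Dark ZT0 counted in the light arm, edgeR 4.0.16 and DESeq2 1.42.0 on recovered reads, each library left out, and, added after seeing the data, terms for oligodendrocyte and thalamus markers.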

Additional observations from a re-analysis of the deposited data

Results flagged for a closer look

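In 6 of 71 groups of 4 libraries, 1 library of a member stood apart from the other 3 by Dixon's gap test, and chance flags about 1 in 20 groups. Dbp in Light ZT15 replicate 4 was 884.9, and the others were 757.9, 758 and 763.4. Tef in Dark ZT3 replicate 3 was 1441, and the others were 1193, 1209 and 1215. The other 4 were Bhlhe41 in groups where the remaining 3 libraries were at 0, so that 1 library with a read is always set apart and the count of 6 says nothing against chance. Its value was 1.42 in Dark ZT0 replicate 4 and 2.077 in Light ZT7.5 replicate 4, on 2 reads each, and 0.8745 in Dark ZT7.5 replicate 4 and 0.9102 in Light ZT11.5 replicate 3, on 1 read each.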

How the results depend on the processing

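Counts of the 5 tested members called moved as follows, and no called result changed direction under the alternatives run. Over the light times, 1 member (Dbp) was called with no filter, with only the groups compared and with the oligodendrocyte term, and 4 (Dbp, Tef, Nfil3 and Bhlhe40) with terms for replicates 3 and 4 or by DESeq2, against 2 in the main test. edgeR called 3 (Dbp, Nfil3 and Bhlhe40), and a minimum mean of 50 called 2 (Dbp and Bhlhe40), with Nfil3 not tested. From ZT0 to ZT1 in light, 1 (Bhlhe40) was called with the replicate terms, against 0. From ZT1 to ZT11.5 in darkness, 1 (Dbp) was called with a pseudocount of 5, a minimum mean of 50, only the groups compared, the replicate terms, without libraries under 2 M reads, by edgeR and by DESeq2, against 0. In light, 1 (Dbp) was called with no filter, with a minimum mean of 50, under which Nfil3 is not tested, and with the oligodendrocyte term, against 2. From ZT11.5 to ZT18 in darkness, 0 were called without libraries under 2 M reads, against 2. The light cosine was called for 2 (Dbp and Tef) under the replicate block, the replicate terms and DESeq2, against 1. The cause was not tested for any of these. With single libraries left out, the counts ran from 1 to 3 over the light times, and from 1 to 2 from ZT1 to ZT11.5 in light, from ZT11.5 to ZT18 in darkness and for the light cosine. Of 25 pairs of light and dark libraries with the same time and number, 5 had deviations correlated above 0.1 (range -0.2014 to 0.4472), so the numbers were not taken to pair samples. As a hint the other way, 30 of 57 libraries were closest to their own number. The replicate block also called Tef over the light times (limma, adjusted p = 0.0428), which gave 3 members. The thalamus and Xist terms and TMM rescaling changed no call of a member. Depth limits Bhlhe41 most, and Nfil3 next.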
